A study of Mus musculus with 32 samples.

Results

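The muscle nicotinic acetylcholine receptor (AChR) is the channel through which acetylcholine released by the motor nerve depolarises the muscle fibre. Its 5 subunit genes, Chrna1, Chrnb1, Chrnd, Chrng and Chrne, were taken by symbol from the 33397 genes of the deposited table, and all 5 were found. GAS (gastrocnemius) muscles of male mice (C57BL/6 in the labels, C57BL/6J in the study's methods, which give 6 to 8 weeks of age) were collected 0, 1, 3, 5, 7, 14, 21 and 28 d after a piece of the left sciatic nerve was removed. Each of the 8 time points had 4 samples, 32 in all, and every group carries the label sciatic nerve transection, also that of 0 d. The columns headed C were taken as 0 d because the columns of each other group carry their day, and no label names them. They are the only control columns of the table. The study describes its RNA-seq comparison group as sham muscle without transection, whereas the labels of the 0 d samples name transection. Every comparison with 0 d rests on this match. The samples of a day are known by group only. Per the methods, isoflurane and buprenorphine were given for the surgery, and the labels name no other agent and no changed allele. The tissue is whole muscle, so that nerve branches, vessels and infiltrating cells were sequenced together with the fibres.

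In the mature, innervated fibre the receptor is a pentamer of alpha, beta, delta and epsilon subunits, held at high density under the nerve ending. In fetal muscle, and again in muscle without nerve input, the gamma subunit takes the place of epsilon, which gives channels with a longer open time. Electrical activity represses the subunit genes in nuclei away from the synapse, where the E-box, a site bound by myogenic factors such as myogenin, is a known control element. The synaptic epsilon gene also carries an N-box, which is bound by ETS family factors including GABP.

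Sequence upstream of the start is shown because 4 of the 5 genes moved together and 1 did not. RefSeq windows from 250 bases before to 50 after the start were matched for 4 members (assembly GRCm38.p6). No window was available for Chrnd, which is 1 of the 4 genes that moved together. The part before any annotated exon is printed 5′ to 3′ on the gene's strand, with CANNTG (E-box) and CCGGAA (N-box core) in capitals. The search covered both strands. CAGCTG and CAGGTG are also CANNTG, and no E-box overlapped an N-box core. The Chrng window lies inside the longer GENCODE gene but outside its exons.
Chrna1, chr2:73580339-73580588, minus strand: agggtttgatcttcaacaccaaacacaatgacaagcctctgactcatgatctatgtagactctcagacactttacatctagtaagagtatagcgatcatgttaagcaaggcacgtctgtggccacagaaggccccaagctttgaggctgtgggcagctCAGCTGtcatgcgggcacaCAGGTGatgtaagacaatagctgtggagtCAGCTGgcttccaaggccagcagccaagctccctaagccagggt
Chrnb1, chr11:69795944-69796187, minus strand: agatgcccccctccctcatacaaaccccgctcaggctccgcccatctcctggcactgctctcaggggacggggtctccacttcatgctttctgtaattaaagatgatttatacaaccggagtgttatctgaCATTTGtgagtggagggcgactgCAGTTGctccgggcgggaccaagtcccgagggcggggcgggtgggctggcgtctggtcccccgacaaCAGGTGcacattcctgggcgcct
Chrng, chr1:87205561-87205809, plus strand: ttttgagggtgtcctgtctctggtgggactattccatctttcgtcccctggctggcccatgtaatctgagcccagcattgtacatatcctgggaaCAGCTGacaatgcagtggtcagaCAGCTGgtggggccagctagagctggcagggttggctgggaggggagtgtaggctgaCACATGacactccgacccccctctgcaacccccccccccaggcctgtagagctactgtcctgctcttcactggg
Chrne, chr11:70619217-70619444, minus strand: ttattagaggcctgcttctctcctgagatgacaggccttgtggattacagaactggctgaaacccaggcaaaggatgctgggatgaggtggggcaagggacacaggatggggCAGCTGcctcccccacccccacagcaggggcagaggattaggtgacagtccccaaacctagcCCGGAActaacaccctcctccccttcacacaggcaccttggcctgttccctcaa
The windows of Chrna1, Chrnb1 and Chrng each held 3 E-boxes, and that of Chrne held 1. Of 32851 RefSeq windows of the same 300 bases, 17.6% held 3 or more and 72.3% held at least 1. The E-box form CAGCTG was present 2 times in Chrna1, 2 times in Chrng and 1 time in Chrne, against 1.90% of all windows with 2 or more and 16.3% with at least 1. CACCTG or CAGGTG was present 1 time in Chrna1 and 1 time in Chrnb1, and in 20.2% of all windows. CCGGAA or its reverse complement was present 1 time in the Chrne window and in none of the other 3, and in 14.9% of all windows. These are matches of letters, not measured binding sites.

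The total of recovered fragments (see the processing) was 14199900 to 17561580 per sample, median 16663160. The tissue was checked with 12 muscle fibre markers, which were all detected at 0 d with a summed level of 51328 to 54509 FPKM (fragments per kilobase of exon, scaled to the depth of the sample). The extraction text of the labels names retinas, but the 6 retina markers in the table summed to at most 0.262 FPKM in any sample. One 3 d sample stood apart from the other 3 d samples, at -19.4 against 0.75 to 6.25 on the first principal component. It had 13.5% mitochondrial fragments against 9.95 to 11.5%, and a macrophage marker sum of 261 FPKM against 438 to 871. It was also below the other 3 d samples in the marker sums of Schwann cells (27.8 against 41.2 to 75.2 FPKM), satellite cells (27.7 against 39.3 to 45.7), fibroblasts (274 against 488 to 682), endothelium (48.1 against 54.5 to 69.1) and adipocytes (37.4 against 43.1 to 194). Its fibre marker sum lay within their range. The mitochondrial share also differed between days, at 14.5% to 18.2% in the 0 d samples, 12.2% to 17.1% at 1 d and 6.70% to 13.5% from 3 d on, and its part in the comparisons with 0 d was not tested. The subunit values at 3 d are given below with and without the 3 d sample that stood apart. Less RNA per cell and fewer cells of a type cannot be told apart in whole muscle.

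Chrna1 (ENSMUSG00000027107, GRCm38 chromosome 2, 73563215 to 73580338, minus strand) encodes the alpha subunit, which carries most of the acetylcholine binding site. Its level at 0 d was 4.11, 3.02, 3.41 and 3.68 FPKM in the 4 samples, and 4.11, 4.95, 4.56 and 4.29 FPKM at 1 d, ranges that touch. At 3 d the samples held 24.6, 38.5, 61.0 and 72.0 FPKM, all above every 0 d sample but spread widely. The level was 122 ± 8.05 FPKM at 5 d and 173 ± 21.9 at 7 d (SD, n = 4). It then stayed between 184.6 and 229.6 FPKM across the 14 d, 21 d and 28 d samples, leaving a mean at 28 d that was 55.8 times that of 0 d. On the log2(FPKM + 1) scale the change against 0 d was 0.27 ± 0.18 at 1 d (SE, limma adjusted p = 0.311). It reached 3.35, 4.76, 5.25 and 5.45 on days 3, 5, 7 and 28, respectively.

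Chrnb1 (ENSMUSG00000041189, chromosome 11, 69784036 to 69795943, minus strand) encodes the beta subunit, whose phosphorylation strengthens the link to the anchoring protein rapsyn. It was the highest of the 5 at 0 d on the FPKM scale, at 10.7, 11.4, 12.5 and 10.9. The 1 d samples were 23.7, 22.5, 20.0 and 18.3 FPKM, so that all 4 lay above every 0 d sample. The 3 d samples were 56.1, 47.9, 53.0 and 57.2 FPKM, the narrowest spread of the 5 genes on that day relative to the mean. The mean went on to 74.2 ± 6.51 FPKM at 5 d, 97.1 ± 9.50 at 14 d and 116 ± 4.31 at 28 d, which was 10.2 times the 0 d mean. The log2 change was 0.83 ± 0.09 at 1 d (limma adjusted p = 1.71e-08) and 3.24 ± 0.09 at 28 d. Chrnb1 was the only one of the 5 that passed as higher at 1 d, and whether it differed from the others on that day is given by the ratios below.

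Chrnd (ENSMUSG00000026251, chromosome 1, 87190607 to 87200070, plus strand) encodes the delta subunit. It was near 1 FPKM at first, with 0.77, 0.92, 0.96 and 0.94 at 0 d, and 0.79, 0.91, 1.04 and 0.61 at 1 d. At 3 d it held 5.20, 9.71, 16.8 and 20.0 FPKM. Its level went on upward after 7 d, from 53.7 ± 5.79 FPKM at 7 d to 102 ± 11.1 at 14 d and 125 ± 9.05 at 28 d. The log2 change was -0.05 ± 0.21 at 1 d, then 2.73, 4.84 and 6.05 on days 3, 7 and 28. On the last day the mean was 139 times that of 0 d.

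Chrng (ENSMUSG00000026253, chromosome 1, 87204657 to 87212694, plus strand), 4586 bases beyond the end of Chrnd, encodes the fetal gamma subunit. It was almost absent at 0 d and 1 d: 1, 6, 0 and 3 fragments were recovered in the 0 d samples, and 2, 2, 2 and 0 at 1 d. At 3 d there were 244, 429, 747 and 1051 fragments, or 3.83, 6.16, 11.02 and 14.96 FPKM. The mean reached 29.96 ± 1.76 FPKM at 7 d and 57.7 ± 9.65 at 28 d, when 3 samples held 61.6 to 63.1 FPKM and the last held 43.2. The sum of fragments per total was 233 times that of 0 d at 3 d (exact 95% interval 126 to 486) and 1471 times at 28 d (800 to 3069), intervals that cover counting error only. Of the 10 fragments at 0 d, 6 came from 1 sample, and the ratios without it were not computed. The ratio of fragments per total was 0.593 at 1 d (0.177 to 1.80). No change was thus detected at 1 d, and changes within this interval cannot be told from none at this depth. On the log2(FPKM + 1) scale, which understates a change from so low a level, it was 3.12 ± 0.20 at 3 d and 5.80 at 28 d. Chrng was above 0.1 FPKM in the 24 samples from 3 d on and in none of the 0 d and 1 d samples, and so entered the test only through the days on which it was high.

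Chrne (ENSMUSG00000014609, chromosome 11, 70614883 to 70619216, minus strand) encodes the epsilon subunit of the adult synapse, and it moved the other way. The 0 d samples held 6.72, 6.38, 8.30 and 9.06 FPKM. At 1 d they held 4.46, 4.31, 4.81 and 3.80, and at 3 d 0.85, 1.03, 1.09 and 2.00, all below every 0 d sample. The level then came back, with 3.48 to 4.04 FPKM at 5 d, 5.64 to 7.44 at 7 d, 5.14 to 9.67 at 14 d and 8.53 to 11.7 at 21 d. The log2 change was -0.68 ± 0.14 at 1 d (limma adjusted p = 0.000469), -1.96 ± 0.14 at 3 d (3.59e-12) and -0.84 ± 0.14 at 5 d (1.85e-05). It was -0.24 at 7 d and 0.03 at 14 d, neither called. The 21 d value of 0.38 had an adjusted p of 0.0366 but was under 1.5-fold, and 28 d gave 0.23. With the samples rescaled by median ratio or by quantiles, the 7 d value became -0.57 or -0.56 (limma adjusted p = 0.00337 and 0.00396), just under 1.5-fold. The 14 d value became -0.33 or -0.31, the 21 d value 0.10 or 0.12 and the 28 d value -0.12 or -0.08, none called. With FPKM rescaled to the same sum in every sample (TPM) the values moved the other way. They were -0.07, 0.22, 0.54 and 0.41 on days 7, 14, 21 and 28. None was called, though the limma adjusted p was 0.0109 at 21 d and 0.0472 at 28 d.

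**Figure D1:**
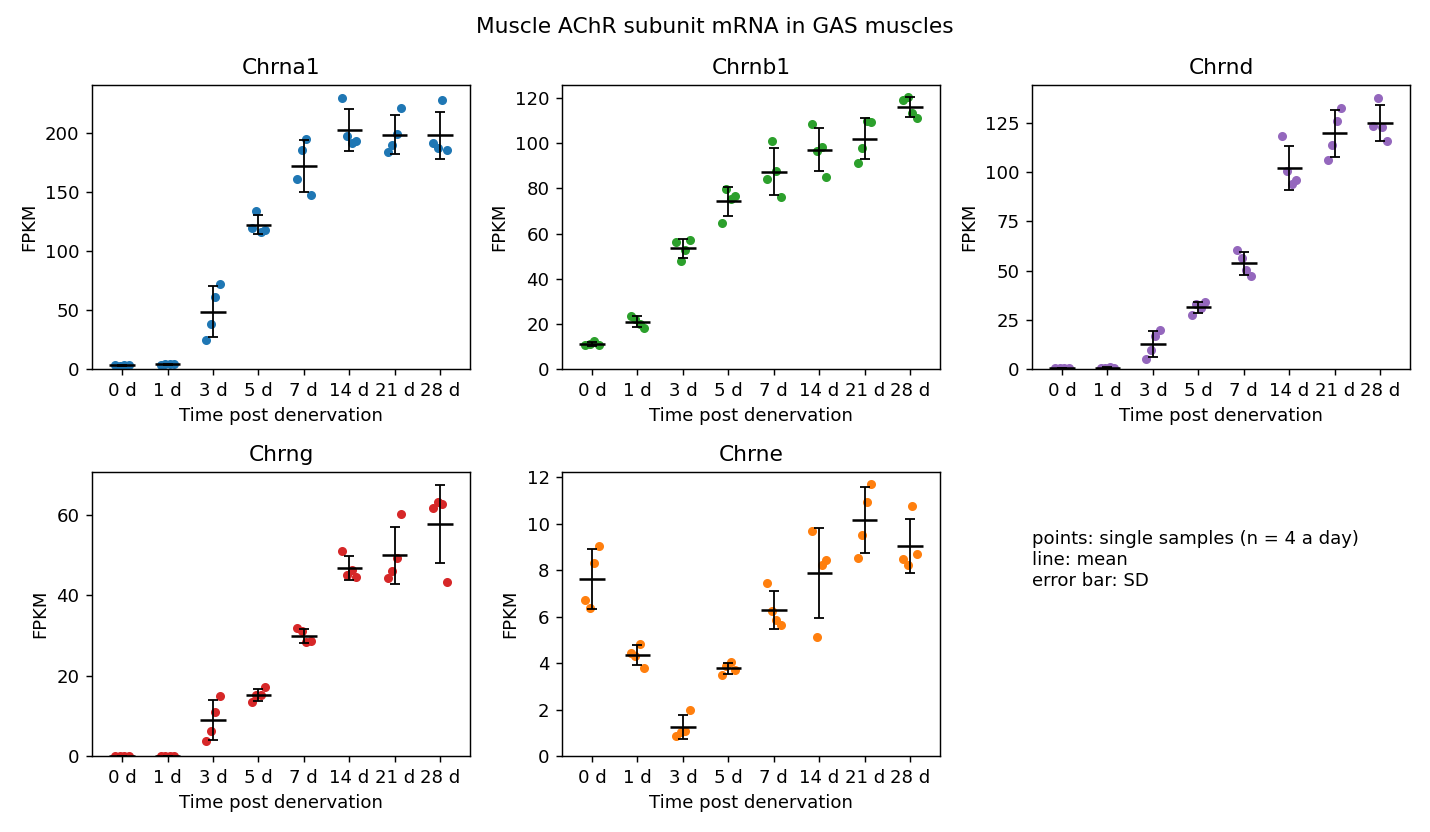
FPKM (y axis, from 0, a separate scale for each gene) of the 5 subunits against time post denervation (x axis, evenly spaced days), with each sample as a point, the mean as a line and the SD as a bar (n = 4). Chrna1, Chrnb1, Chrnd and Chrng rise from 1 d or 3 d on, whereas Chrne falls to between 0.85 and 2.00 FPKM at 3 d and comes back.

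A gene on the opposite strand, 4930544D05Rik (70615848 to 70616890), lies within Chrne with 0 exon bases shared. Its FPKM was 1.61 ± 0.441 at 0 d, 0.178 ± 0.0447 at 3 d and 2.30 ± 0.731 at 28 d. The strand setting of the counting is not given in the sources used here, so that intronic or read-through fragments of either gene cannot be told apart.

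Counting the 5 genes by day, with a call meaning a limma adjusted p under 0.05 and at least 1.5-fold, 1 was higher and 1 lower at 1 d. The background of all 22071 genes tested was 6.34% called higher and 2.49% lower. At 3 d 4 were higher and 1 lower (background 13.2% and 6.03%), and at 5 d again 4 and 1 (14.9% and 3.86%). At 7, 14, 21 and 28 d 4 were higher and 0 lower, with 15.4%, 14.6%, 11.8% and 14.2% of all genes higher and 4.1%, 3.83%, 3.93% and 4.1% lower. The median log2 change of the 5 was -0.02, 2.73 and 5.45 on days 1, 3 and 28, and that of all genes tested was 0.03, 0.06 and 0.14. Chrna1, Chrnd, Chrng and Chrnb1 did not overlap with 0 d from 3 d on, and Chrnb1 already at 1 d. All samples of a day above all of 0 d were seen in 19.9% of genes tested on day 1 and in 23%, 35.9%, 32.4%, 36.8%, 32.9% and 36.6% on the later days in order. All samples below those of 0 d, as for Chrne on days 1, 3 and 5, were seen in 8.6%, 12.3% and 8.93%. For each of these single-gene comparisons the two-sided exact permutation test gave 0.0286, the smallest p that 4 against 4 allows.

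The median gene was higher after denervation on the deposited scale. Among genes with a mean of at least 1 FPKM the median log2 change against 0 d was 0.12 to 0.32, and it was -0.02 to 0.03 after median-ratio scaling. The share of calls that were higher was 68.7% to 79.5% as deposited and 44.8% to 49.6% after median-ratio scaling. The rises of Chrna1, Chrnb1, Chrnd and Chrng from 3 d on and the falls of Chrne at 1 d, 3 d and 5 d were called under every scaling tried (as deposited, TPM, median ratio and quantiles). The rise of Chrnb1 at 1 d was 0.66 after median-ratio scaling, 0.68 by quantiles and 0.98 as TPM, and was called in each. The size of a change depends on the amount added before the log. With 0.1 FPKM in place of 1, the log2 change of Chrng at 28 d was 8.73 in place of 5.80, that of Chrnd 3.54 in place of 2.73 at 3 d and 6.97 in place of 6.05 at 28 d, and that of Chrne at 3 d -2.58 in place of -1.96.

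**Figure D2:**
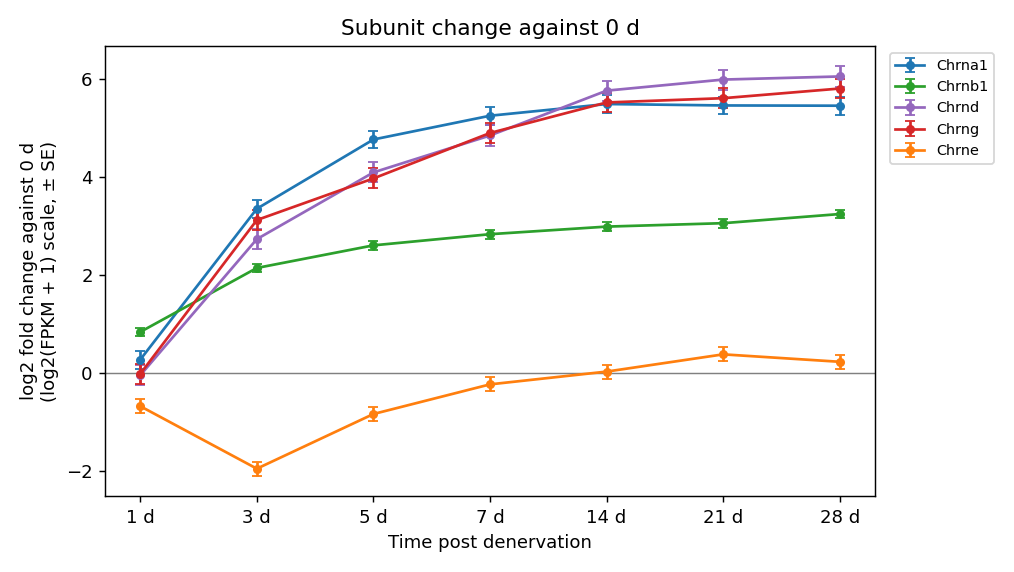
Log2 fold change against 0 d (y axis, log2(FPKM + 1) scale, bars are ± SE from limma, 4 samples a group) for each subunit at 1 to 28 d post denervation (x axis, evenly spaced). Chrnd and Chrng end highest at 6.05 and 5.80, an order that turns over with 0.1 FPKM added (6.97 and 8.73), and Chrne has its lowest point of -1.96 at 3 d.

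Comparing neighbouring days shows when each subunit moved. From 1 d to 3 d all 5 were called: Chrna1 by 3.08, Chrnb1 by 1.31, Chrnd by 2.78 and Chrng by 3.14 upward, and Chrne by -1.28 (6.63% of all genes called higher and 3.93% lower). From 3 d to 5 d 4 were called higher (background 3.72% higher), namely Chrna1 by 1.41, Chrnd by 1.36, Chrng by 0.85 and Chrne by 1.12. The Chrnb1 step of 0.46 had a limma adjusted p of 0.000251 and was under 1.5-fold. From 5 d to 7 d Chrng was higher by 0.93 and Chrne by 0.60, against 0.449% of all genes called higher. The Chrne step was lost when either of 2 of the 5 d samples or 1 of the 7 d samples was left out (limma adjusted p from 0.0516 to 0.0919). From 7 d to 14 d only Chrnd was called, by 0.92 (0.376% of all genes higher). Its 5 d to 7 d step of 0.75 had an adjusted p of 0.0521, and the Chrng step from 7 d to 14 d of 0.62 one of 0.107. No step of the 5 genes after 14 d had a limma adjusted p under 0.05, where 0.453% and 0.199% of all genes were called in either direction. Unadjusted p was under 0.05 for 1 of the 5 from 14 d to 21 d (Chrne) and 1 from 21 d to 28 d (Chrnb1). Without the fold threshold, 30.9%, 23.8%, 1.96%, 2.54%, 1.61% and 0.476% of all genes had a limma adjusted p under 0.05 over the 6 steps from 1 d to 28 d in order, against 5, 5, 2, 1, 0 and 0 of the 5 subunits. Compared directly, 28 d was above 3 d for all 5 (7.46% of all genes higher), from 1.10 for Chrnb1 to 3.32 for Chrnd.

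The 3 d values rest in part on the sample that stood apart. It was the lowest of the 4 in Chrna1, Chrnd, Chrng and Chrne, but not in Chrnb1. Without it the 3 d mean was 57.2 ± 17.1 FPKM for Chrna1, 52.7 ± 4.68 for Chrnb1, 15.5 ± 5.27 for Chrnd, 10.7 ± 4.41 for Chrng and 1.37 ± 0.544 for Chrne (SD, n = 3). All 5 calls at 3 d were kept without it. The Chrng step from 3 d to 5 d became 0.55, under 1.5-fold. The 4 samples of 3 d stood in the same order in Chrna1, Chrnd, Chrng, Chrne and Myog. The part of that sample's marker and mitochondrial values in this was not tested.

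The make-up of the receptor message changed with the levels. The 5 subunits summed to 23.5 ± 1.66 FPKM at 0 d, with 30.8 at 1 d, 126 ± 34.97 at 3 d, and then 350 and 506 ± 30.6 on days 7 and 28. Chrne made up 32.3% ± 3.43 of that sum at 0 d and 14.1% ± 1.19 at 1 d, falling to 0.974% ± 0.181 at 3 d, with 1.79% ± 0.184 on day 28 (SD, n = 4). Chrng went from 0.174% to 6.73% at 3 d and 11.4% at 28 d. Chrnb1 was 48.5%, 68.5% and 22.9% on days 0, 1 and 28. Chrna1 went from 15.2% to 49.6% at 5 d and back to 39.2% at 28 d, while Chrnd rose from 3.82% to 24.7%. The 14 d samples of Chrne overlapped those of 0 d in level, but Chrne made up 1.16% to 2.21% of the sum in every sample from 14 d on.

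**Figure D3:**
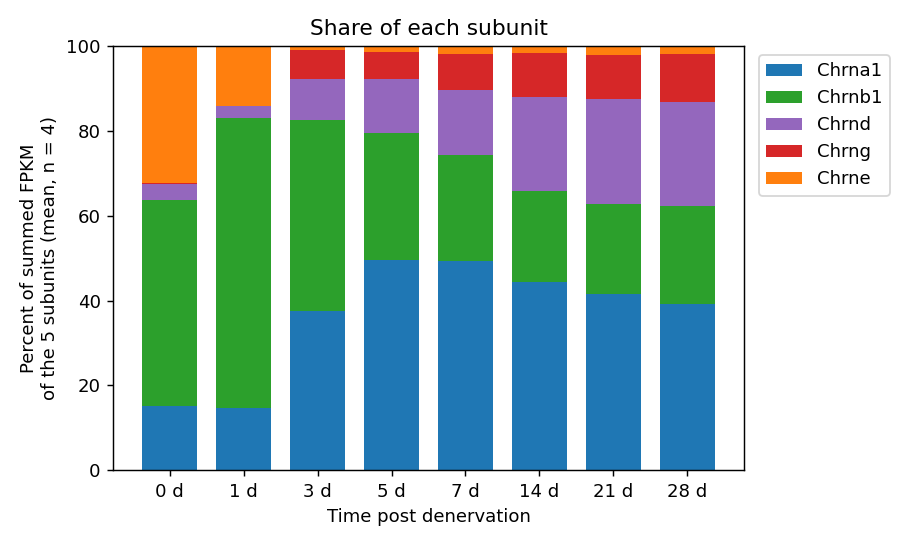
Mean share of each subunit (y axis, percent of the summed FPKM of the 5 genes, n = 4) by time post denervation (x axis). The Chrne part shrinks from 32.3% at 0 d to 0.974% at 3 d, and the Chrng and Chrnd parts widen to 11.4% and 24.7% at 28 d.

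A ratio of 2 genes within a sample does not depend on the sample's scaling where nothing is added to the values, and does where an amount is added, as for Chrng. The FPKM of Chrng was at most 0.0151 times that of Chrne in every 0 d and 1 d sample. From 3 d on it was 3.78 to 10.1 times that of Chrne in each of the 24 samples, with no overlap. The mean log2 ratio, with 0.1 FPKM added to both, was -5.82 and -5.17 on days 0 and 1, and 2.65, 1.99, 2.24 and 2.65 on days 3, 5, 7 and 28. The difference from 0 d was 8.47 at 3 d and 7.81 to 8.48 on the later days, each with exact permutation p = 0.0286 (two-sided, Benjamini-Hochberg adjusted over 70 ratio tests to 0.0317). At 1 d it was 0.65, with an exact permutation p of 0.143. The size depends on what is added: with 1 FPKM added to both, the difference was 5.08 at 3 d and 4.81 to 5.58 on the later days.

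**Figure D4:**
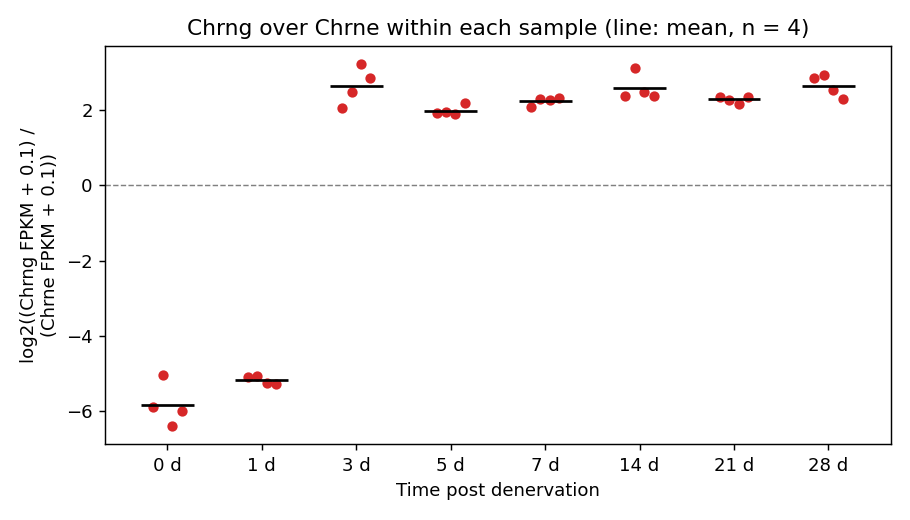
Log2 ratio of Chrng to Chrne within each sample (y axis, 0.1 FPKM added to both; points are samples, lines are means, n = 4) by time post denervation (x axis). All 0 d and 1 d samples lie below -5, and all samples from 3 d on lie above 1.8.

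At 1 d the ratios of Chrnb1 to each of the other 4 had already moved. The log2 ratio of Chrna1 to Chrnb1 differed from 0 d by -0.55, that of Chrnb1 to Chrnd by 1.009, to Chrng by 1.02 (0.1 FPKM added) and to Chrne by 1.69. The ratios of Chrna1 and Chrnd to Chrne also differed, by 1.14 and 0.68. Each of these 6 had an adjusted p of 0.0317 by the exact permutation test. How often the ratio of other gene pairs moves as far was not computed. The mean log2 ratio of Chrna1 to Chrnd was 1.99, 2.44, 1.98, 1.97 and 1.68 on days 0, 1, 3, 5 and 7, and no difference from 0 d on these days passed the exact permutation test (smallest p = 0.0857, adjusted 0.0938, at 1 d). It was 0.99, 0.74 and 0.67 on days 14, 21 and 28, a difference of -1.32 at 28 d (exact permutation p = 0.0286, adjusted 0.0317). Ratios of Chrng to Chrna1 or Chrnd depended on what was added to the few 0 d fragments. The difference in the Chrnd to Chrng log2 ratio at 28 d was -1.75 with 0.1 FPKM added and 0.25 with 1 FPKM, and that of Chrna1 to Chrng at 3 d was -2.25 and 0.23. With nothing added, the fragments per total of Chrnd were 14.6 times those of 0 d at 3 d (exact 95% interval 12.6 to 17.1) and 139 times at 28 d (120 to 162). Those of Chrng were 233 times (126 to 486) and 1471 times (800 to 3069), so that the relative rise of Chrng was above that of Chrnd on both days. These intervals cover counting error only, and 6 of the 10 Chrng fragments at 0 d came from 1 sample.

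Over the 32 samples Chrna1, Chrnb1, Chrnd and Chrng correlated pairwise on the log2(FPKM + 1) scale. Pearson's r was 0.959 to 0.996, highest for the neighbours Chrnd and Chrng. Chrne correlated with them at 0.188 to 0.386. The points share the time course, and these values are a description. The search for like genes used the same scale and 11938 genes with a mean of at least 1 FPKM. Those most like Chrna1 were Dapk2 (0.994), Map1lc3a (0.994) and Kcnn3 (0.992). Runx1 (0.988), Atp13a3 (0.986) and Ugcg (0.986) were most like Chrnb1. For Chrnd they were Fez1, Gm28653 and Gm47523 (0.989, 0.989 and 0.987), and for Chrng Gm28653, Dapk2 and Ncam1 (0.989, 0.987 and 0.987). Chrne was followed less closely, by Tbx15 (0.941), Mmab (0.934) and Coq2 (0.933).

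Nicotinic subunits of neurons and hair cells were at most 4.75 FPKM in any sample, a level reached by Chrna9. Of 11 such genes, 10 were in the table and 5 passed the filter, and Chrna3, Chrna4, Chrna5, Chrna7, Chrnb2, Chrnb3 and Chrnb4 did not exceed 0.340 FPKM in any sample. Chrna9, which forms the receptor of inner ear hair cells, rose from 0.0260 ± 0.0520 FPKM at 0 d to 3.91 ± 0.962 at 3 d (log2 change 2.24, limma adjusted p = 7.27e-13). Its highest 0 d sample held 0.104 FPKM and its lowest 0, so that it entered the test only through later samples in which it was higher. It was 0.866, 3.32 ± 1.29 and 0.239 on days 5, 7 and 28. Chrna2 was called higher at 1 d and on no other day, from 0.318 ± 0.0804 to 1.86 ± 0.452 FPKM, and was listed at 0.0517 FPKM or less in every sample from 3 d on. Those later values were within 1.5-fold of 0 d on the log2(FPKM + 1) scale, on which so low a level can hardly move. Chrna10, the partner of Chrna9, fell from 1.49 ± 0.193 to 0.380 ± 0.0768 FPKM at 3 d (log2 change -0.85).

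The genes that cluster and anchor the receptor rose in part. Of the 15 genes reported, 5 were higher and 0 lower at 3 d and 6 were higher at 28 d, with a median log2 change of 0.44 and 0.33 against 0.06 and 0.14 for all genes tested. Of all genes tested, 13.2% were called higher and 6.03% lower at 3 d, and 14.2% and 4.1% at 28 d. Musk, the receptor kinase that starts clustering, rose from 9.75 ± 1.99 FPKM to 64.3 ± 6.97 at 7 d (log2 change 2.62, limma adjusted p = 4.10e-17). Tubb6, a beta-tubulin, rose from 10.9 ± 1.87 to 108 ± 14.5 FPKM at 7 d.

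Of 9 genes of the synaptic cleft 1 was higher and 3 lower at 3 d (13.2% and 6.03% of all genes), and 0 and 3 at 28 d (14.2% and 4.1%). Their median was -0.44 and -0.16, against 0.06 and 0.14 for all genes tested. Ache, the esterase that breaks down acetylcholine, fell from 5.94 ± 0.195 FPKM to 0.843 ± 0.0877 at 3 d (log2 change -1.91, limma adjusted p = 9.41e-18). Colq, the collagen tail that fixes the esterase in the cleft, fell from 2.23 ± 0.543 to 0.529 ± 0.216 FPKM at 5 d. Lama5, a laminin chain of the synaptic basal lamina, rose from 5.11 ± 0.866 to 10.8 ± 0.797 FPKM at 3 d.

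The list of activity-linked transcription held 18 genes, which encode transcription factors and histone deacetylases. Of these 8 were higher and 1 lower at 3 d (13.2% and 6.03% of all genes) and 10 and 1 at 28 d (14.2% and 4.1%). Their median was 0.42 and 0.74, against 0.06 and 0.14 for all genes tested. Myog, which encodes the E-box factor myogenin, went from 1.97 ± 0.464 FPKM to 215 ± 34.5 at 3 d (log2 change 6.18), and Myf6, of the same family, from 90.4 ± 7.72 to 1103 ± 59.4. Dach2, a repressor of Myog, fell from 0.915 ± 0.142 to 0.0373 ± 0.0161 FPKM at 28 d. Of 8 neuregulin pathway and N-box genes 6 passed the filter. Of these, none was called lower on any day, and 0, 1, 1, 1, 3, 1 and 2 were higher on days 1, 3, 5, 7, 14, 21 and 28. The share of all genes called higher on those days was 6.34%, 13.2%, 14.9%, 15.4%, 14.6%, 11.8% and 14.2%, so that 1 of 6 is close to the background. At 14 d Erbb3 rose from 1.43 ± 0.337 to 4.17 ± 0.618 FPKM and Erbb2 from 1.31 ± 0.109 to 2.74 ± 0.540. The Erbb2 rise fell under 1.5-fold with median-ratio or quantile scaling (0.43 and 0.42). Of 10 assembly chaperones and Ly6 modulators 9 passed, with 3 higher and 1 lower at 3 d (13.2% and 6.03% of all genes) and a median of 0.0025 against 0.06 for all genes tested. The chaperones Hspa5 and Canx rose from 48.9 ± 2.48 to 174 ± 8.49 and from 26.3 ± 1.71 to 65.9 ± 0.700 FPKM. Lynx1, a membrane protein that dampens nicotinic receptors, fell from 43.2 ± 4.13 to 4.47 ± 0.386 FPKM at 3 d (log2 change -3.01).

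**Figure D5:**
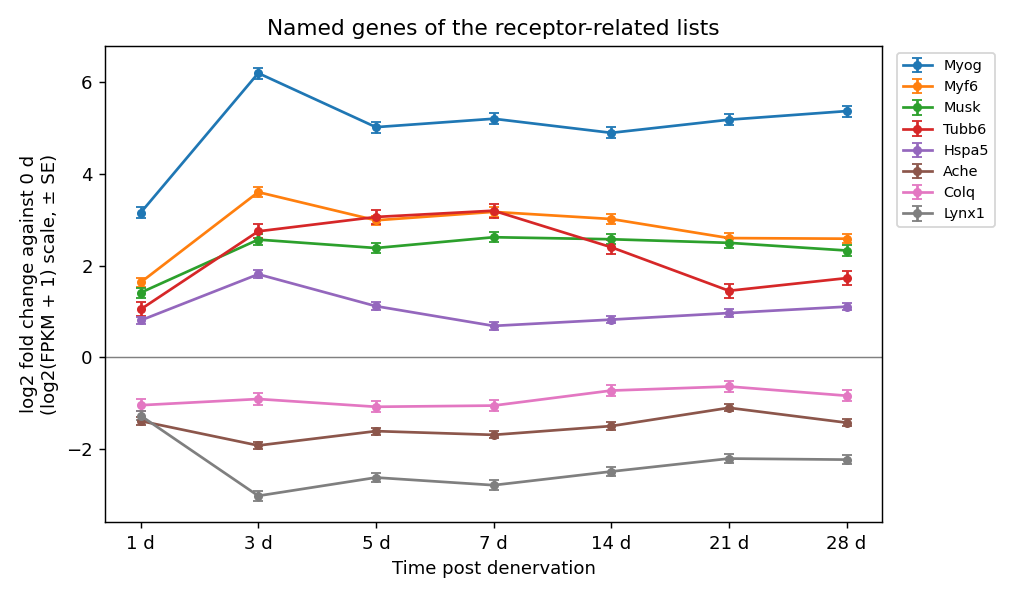
Log2 fold change against 0 d (y axis, log2(FPKM + 1) scale, bars are ± SE from limma, 4 samples a group) of 8 named genes at 1 to 28 d (x axis). Myog peaks at 6.18 at 3 d, and Ache, Colq and Lynx1 stay below 0 on every day.

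Markers of other cells moved over the same days. The muscle fibre sum was 26106 to 30701 FPKM at 3 d and 32191 to 36041 at 28 d. At 3 d 8 of the 12 fibre markers were lower and 0 higher (6.03% and 13.2% of all genes), so that the fall of Chrne and the rise of the other 4 were measured in samples with less fibre message. The Schwann cell sum (9 markers) was 138 to 294 FPKM at 0 d and 27.8 to 75.2 at 3 d. Of these markers 6 were called lower and 1 higher at 3 d (6.03% and 13.2% of all genes), and 6 and 2 at 28 d (4.1% and 14.2%). Ngfr was the higher one at 3 d (log2 change 3.11), with Sox10 beside it at 28 d (3.06 and 0.68), both named after their values were seen. The macrophage and leukocyte sum (8 markers) was 122 to 175 FPKM at 0 d and 261 to 871 at 3 d, when 7 of the 8 were called higher and 0 lower. The satellite cell and myoblast sum (6 markers) was 21.1 to 23.6 FPKM at 0 d and 27.7 to 45.7 at 3 d, with 3 of the 6 called higher and 0 lower. Fibroblast markers (6) summed to 473 to 615 and 274 to 682 FPKM, endothelial markers (5) to 80.9 to 92.2 and 48.1 to 69.1, and adipocyte markers (4) to 137 to 273 and 37.4 to 194 on the same days. In these 3 lists 1, 3 and 2 markers were called lower at 3 d and 0 higher. Of 7 neuron markers 5 were in the table, with at most 0.247 FPKM in sum in any sample. The part of these cells in the subunit changes was not tested.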

How the data were processed

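RNA-seq of 32 GAS samples (8 days, 4 each) was analysed. Per the labels, the submitters' processing notes name CASAVA, HISAT2 2.1.0, DESeq2 and the build GRCm38. The authors deposited FPKM per Ensembl gene, and the counter, annotation and strand setting are not given in the sources used here. Symbols came from GENCODE mouse release 21, which matched 33356 of 33397 IDs. Fragments were recovered as FPKM times merged exon length times the total that made most low values whole. Under 200 fragments, 99.3% to 99.4% of values lay within 0.05 of a whole number.

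Genes with at least 0.1 FPKM in at least 4 samples (22071) were tested as log2(FPKM + 1) in 1 limma fit over all 32 samples (limma 3.58.1, R 4.3.3, variance trend, Benjamini-Hochberg). A call needed an adjusted p under 0.05 and 1.5-fold. The fit was also run on simulated data as a check of the code, and the outcome of that run is not reported here. The series' design text speaks of 32 separate muscles, and the labels do not tie them to animals, so p-values measure the spread between these samples. Single values and ratios used exact permutation tests (scipy 1.17.1). Ratios without Chrng had nothing added.

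Named are the 5 members, at most 2 rises and 2 falls per list by largest change among calls, the 3 genes most correlated with each member, and a gene overlapping a member. The members and lists were chosen with earlier results of these data known. In the clustering and anchoring list 1 gene is not reported here, and its counts and medians leave that gene out. Alternatives were other pseudocounts, filters and scalings, no variance trend, only the samples of a comparison, and leaving out each sample.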

Additional observations from a re-analysis of the deposited data

Results flagged for a closer look

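In 4 of the 40 groups (5 genes by 8 days) 1 sample lay far from the other 3 by Dixon's test at 95%, where chance gives about 1 in 20. They were the highest Chrna1 samples of 14 d (229.6 FPKM, the others 191.6 to 197.3) and 28 d (228 FPKM, the others 186.1 to 192.0), and the lowest Chrng samples of 1 d (0, the others 0.0298 to 0.0338) and 28 d (43.2, the others 61.6 to 63.1). The 1 d Chrng samples held 0 fragments against 2 in each of the others, a gap that counting noise alone can give, so that this one says nothing about that sample.

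Of the 30 steps between neighbouring days from 1 d on, 13 differed by a limma adjusted p under 0.05, in log2 units. From 1 d to 3 d these were Chrna1 (3.08), Chrnb1 (1.31), Chrnd (2.78), Chrng (3.14) and Chrne (-1.28). From 3 d to 5 d they were Chrna1 (1.41), Chrnb1 (0.46), Chrnd (1.36), Chrng (0.85) and Chrne (1.12). From 5 d to 7 d Chrng (0.93) and Chrne (0.60) differed, and from 7 d to 14 d Chrnd (0.92). By the same limma threshold, with no fold needed, 30.9%, 23.8%, 1.96%, 2.54%, 1.61% and 0.476% of all genes differed over the 6 steps in order.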

How the results depend on the processing

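No paired analysis was possible because the columns of the table carry no replicate number that ties them to the samples' titles. For the 35 changes of the 5 subunits against 0 d, 10 alternatives that kept all samples gave 343 values with the same direction and call, 5 with the opposite direction and 1 newly called. For Chrng at 1 d the fit to the samples of the comparison alone gave no value, since it was under the filter there. The 5 were of changes that were not called: Chrnd at 1 d as TPM (0.00038), and Chrne by median ratio or quantiles at 14 d (-0.33 and -0.31) and 28 d (-0.12 and -0.079). With no fold threshold Chrne at 21 d was called (0.38). Among steps, Chrnb1 from 3 d to 5 d was called with no fold threshold (0.46), and Chrng over the same days was not called from the samples of that comparison alone (0.85). Chrnd from 5 d to 7 d was called with a filter of 1 FPKM (0.75), by median ratio (0.76), by quantiles (0.75) and from its own samples (0.75), and Chrng from 7 d to 14 d by quantiles (0.67) and from its own samples (0.62). Steps that changed sign without a call were Chrna1 from 14 d to 21 d by median ratio (0.063), Chrnd from 21 d to 28 d by median ratio (-0.013) and Chrna1 over the same days as TPM (0.026). With 0.1 or 0.5 FPKM added, all called changes of the 5 subunits against 0 d stayed called but differed in size (Chrng at 28 d 8.73 or 6.74, Chrnd 6.97 or 6.49). The cause was not tested.

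Genes called against 0 d numbered 1950, 4254, 4148, 4308, 4075, 3466 and 4049 on days 1, 3, 5, 7, 14, 21 and 28. With no fold threshold they numbered 6493, 9559, 10068, 10429, 10434, 9227 and 10518, and with 0.1 FPKM added 3621, 6847, 6934, 7267, 7138, 6057 and 7277. As TPM they numbered 3313, 7135, 7448, 7610, 5720 and 7216 on days 1, 5, 7, 14, 21 and 28. With 1 FPKM added, the difference in the Chrng to Chrne log2 ratio from 0 d was 5.08, 4.81, 5.13, 5.49, 5.23 and 5.58 on days 3, 5, 7, 14, 21 and 28.

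Leaving out each sample in turn kept the call of all 35 changes against 0 d. The uncalled changes of Chrnd at 1 d (-0.10 to 0.013), Chrng at 1 d (-0.039 to 0.0049) and Chrne at 14 d (-0.073 to 0.19) changed sign, as did the steps of Chrng (-0.0030 to 0.14) and Chrna1 (-0.082 to 0.031) from 14 d to 21 d and of Chrna1 from 21 d to 28 d (-0.073 to 0.047). The steps of Chrng from 3 d to 5 d (0.55 to 1.12) and of Chrne from 5 d to 7 d (0.53 to 0.65) lost their call without 1 of the 3 d samples and without any of 3 samples, respectively. With 1 sample less, 3 against 4, a ratio cannot pass the exact test, so its values were compared without a test: the Chrng to Chrne difference was 0.46 to 0.91 at 1 d and 7.62 to 8.74 later. Of the 16 other named genes, Erbb2 at 14 d lost its call under another scaling. Depth limits Chrng at 0 d and 1 d, where 10 and 6 fragments were recovered in all.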
